A study of Mus musculus with 12 samples.

Results

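The 39 genes described here are interferon-stimulated genes of mouse that belong to none of the large families of such genes (Gbp, Irg, Ifit, Oas, Isg15 and the antigen presentation genes). They were picked by gene symbol, with no threshold on a measured value but with earlier results of these data known, and all 39 were found among the 24454 genes of the expression table. A mean of at least 10 normalized counts over the 12 libraries was reached by 38 of them and by 11476 genes in all, and these were tested. Ifi44 was the member that did not reach it, with 4.48 normalized counts (4 reads) in 1 Δβ SP library and 0 in the other 11. The members nearest above the limit were Ly6a and Rtp4, with means of 19.5 and 19.5 normalized counts.

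RNA came from leukemic blasts of an acute myeloid leukemia (AML) model, in which fetal liver cells carried the human fusion oncogene MLL-AF9 on a retroviral vector together with the fluorescent reporter Venus. The WT blasts came from wildtype mice. The Δβ blasts came from mice that lack STAT3β, the shorter splice form of the transcription factor STAT3, in every cell. No agent was given. The recipients of both genotypes' cells were males of the strain NOD.Cg-Prkdc scid Il2rg tm1Wjl/SzJ, aged 6 to 8 weeks, which lack lymphocytes of their own but keep host myeloid cells, stroma and endothelium. Venus+ cells were sorted from the spleen (SP) and the bone marrow (BM) of diseased recipients, and the groups WT SP, Δβ SP, WT BM and Δβ BM held 3 libraries each. Because the sources used here do not say whether the libraries of a group came from separate recipients or separate fetal liver donors, p-values measure the spread between these libraries, which may be technical. A lower value in such bulk RNA cannot be told apart from fewer cells that express a gene.

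Each library held 9001051 to 13859727 reads on genes, and 1 read corresponded to 0.775 to 1.17 normalized counts. The leukocyte gene Ptprc and the myeloid and leukemia genes Itgam, Mpo, Kit, Meis1, Hoxa9, Hoxa10 and Csf3r were present in all 12 libraries. Mpo lay between 5172 and 53209 normalized counts. WT SP replicate 1 had the lowest Hoxa10 (88.9, against 344 to 1222 elsewhere). It also had the lowest Kit, Meis1 and Hoxa9 (439, 516 and 798) and the highest Ptprc and Itgam. Itgam and Mpo were without overlap between the genotypes in 1 organ each. All Δβ libraries lay below WT for Itgam in SP (log2 fold change -1.06, DESeq2 adjusted p = 0.0107) and above WT for Mpo in BM (1.83, DESeq2 adjusted p = 1.0). Hemoglobin genes were at 0. Of 9 macrophage markers, C1qa, C1qb, C1qc, Cd5l and Timd4 reached 30.8 normalized counts in WT SP replicate 1 and 4.27 elsewhere, and Mertk 61.5 and 5.95. The other 3 were abundant in all libraries, Adgre1 with overlapping genotypes, Vcam1 lower in all Δβ BM libraries (mean 1686 against 4384) and Slc40a1 lower in all Δβ SP libraries (mean 548 against 926). The 9 summed to 3479 to 5672 normalized counts in SP and, in BM, to 4689 to 5904 in Δβ and 6478 to 8964 in WT. Pecam1, an endothelial gene that leukocytes also express, was higher in all Δβ SP libraries (over both organs 0.68, DESeq2 adjusted p = 0.0155), while Cdh5 and Kdr stayed at or under 3.18. The part of these markers in the members' values was not tested. Of T and NK cell markers (6 genes, summed), Δβ SP replicate 1 had 124 and Δβ BM replicate 1 had 299 normalized counts, Δβ SP replicate 3 had 36.3, and the other 9 libraries had 1.13 to 17.3. The ribosomal RNA precursor Rn45s took 2.48% and 2.41% of the reads of WT SP replicates 2 and 3 and 0.178% to 0.725% in the other 10. Stat3 ranged from 2349 to 4430 normalized counts with overlapping genotypes, and these values per gene do not separate STAT3β from the longer STAT3α.

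Interferons of type I bind the receptor IFNAR1/IFNAR2, whose kinases phosphorylate transcription factors of the STAT family. A complex that holds STAT2 and IRF9 then binds a DNA element, the interferon-stimulated response element (ISRE), whose core repeats the letters GAAA. Interferon-γ acts instead through the palindromic GAS element, the kind of site that STAT3 dimers also bind. The products of the genes turned on in this way detect foreign nucleic acid, modify nucleotides, RNA or proteins, restrict viruses at membranes, or set off cell death. In myeloid cells many of them also have a basal level without infection.

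RefSeq start regions (250 bases before to 50 after the start, build GRCm38.p6, a patch release of the GRCm38 that the submitters' processing notes name) were found for 29 of the 39 members. Dhx58, Zbp1, Ifi204, Parp9, Parp14, Ly6e, Ly6a, Rtp4, Tor1b and Tor3a had no match. The ISRE core was searched as GAAANNGAAA on both strands, overlapping matches included, and 9 of the 29 members (31.0%) held it, against 3.99% of the 27025 genes with such a region. The 9 were Bst2, Ddx60, Ifi203, Ifih1, Ogfr, Slfn5, Tdrd7, Trim21 and Trim30a. The GAS core TTCNNNGAA, which reads alike on both strands, stood in 4 members (13.8%), Adar, Bst2, Ifi35 and Samhd1, against 9.55% of all genes. A match is a run of letters and was not tested for binding. The sequences below belong to members whose values differed most between the genotypes or lead their role group, read 5′ to 3′ on the gene's own strand, with the ISRE core in capitals (for Trim30a the core lies on the opposite strand). Ddx60 holds separate copies just before its start, and in Bst2 and Trim21 overlapping copies share a GAAA.
Ddx60, chr8:61928014-61928097, plus strand: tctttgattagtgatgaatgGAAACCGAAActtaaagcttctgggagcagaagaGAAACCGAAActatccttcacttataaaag
Ifi203, chr1:173942498-173942547, minus strand: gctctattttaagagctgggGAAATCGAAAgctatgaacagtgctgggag
Bst2, chr8:71537567-71537622, minus strand: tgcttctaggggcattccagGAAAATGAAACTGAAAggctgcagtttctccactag
Trim21, chr7:102565453-102565489, minus strand: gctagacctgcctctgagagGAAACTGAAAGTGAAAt
Trim30a, chr7:104465200-104465249, minus strand: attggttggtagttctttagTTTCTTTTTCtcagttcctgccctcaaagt

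Lpar6 and Lgals3bp, whose values differed widely between the genotypes, had no exact match to either core in their regions. In Lgals3bp, copies of GAAA stand just before the start with wider spacing than the searched core allows. Their start regions from base -80 to base 30 are shown for comparison, with the first 3 transcribed bases in capitals.
Lpar6, chr14:73237811-73237920, plus strand: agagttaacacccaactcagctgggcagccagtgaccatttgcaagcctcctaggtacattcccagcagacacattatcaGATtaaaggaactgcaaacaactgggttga
Lgals3bp, chr11:118401930-118402039, minus strand: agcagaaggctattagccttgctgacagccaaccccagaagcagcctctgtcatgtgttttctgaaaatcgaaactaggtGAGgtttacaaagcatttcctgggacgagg

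The first question was whether these genes had other levels in Δβ than in WT blasts. Differences are given as log2 fold changes of the normalized count plus 1, Δβ minus WT, with their standard errors (SE) from limma, fitted over all tested genes with Benjamini-Hochberg adjustment. In SP, 28 of 38 members lay above 0 (48.1% of all tested genes did), with a median of 0.31 against -0.01 over all genes. In BM, 29 of 38 lay above 0 (45.3% of all genes), with a median of 0.33 against -0.02. With SP and BM libraries of the same genotype and number averaged, 31 of 38 lay above 0 (46.5% of all genes), with a median of 0.36 against -0.02.

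No member passed an adjusted p under 0.05 in SP, in BM or over both organs, where limma called 0.105%, 0.0697% and 0.148% of all tested genes. At an unadjusted p under 0.05, 6 members were higher in Δβ SP (5.93% of all genes), namely Bst2, Lgals3bp, Lpar6, Ly6a, Rtp4 and Trim21. In BM the 6 were Ddx60, Ifi35, Lgals3bp, Lpar6, Ly6a and Ly6e (1.25% of all genes). Over both organs they were 9 (3.41% of all genes), Ddx60, Ifi35, Lgals3bp, Lpar6, Ly6a, Ly6e, Rtp4, Trim21 and Trim30a. None was lower at that level in SP, BM or both (8.96%, 1.33% and 6.50% of all genes). edgeR also called 0 members in each. DESeq2 on the recovered reads called Lgals3bp and Trim21 in SP (3.98% of all genes), 0 in BM (0.322%), and Ddx60, Lgals3bp, Lpar6, Ly6a and Rtp4 over both organs (3.68%), all higher in Δβ.

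Every Δβ library lay above every WT library for 7 members in SP (7.92% of all genes), Bst2, Lgals3bp, Lpar6, Ly6a, Rtp4, Trim21 and Trim30a. In BM this held for 5 members (3.50% of all genes), Ddx60, Ifi35, Lpar6, Ly6a and Ly6e. Lpar6 and Ly6a were the pair for which it held in both organs (0.863% of all genes). The 7 and 5 members were 18.4% and 13.2% of those tested. For 0 members did every Δβ library lie below every WT library in SP or in BM (9.37% and 4.13% of all genes). Without Δβ SP replicate 3 the count in SP was 19 (11.7% of all genes), and without WT SP replicate 1 it was 13 (10.5%). Without WT SP replicate 3 it was 8, or 21.1% of the members, which was under the share of all genes (24.9%). Without Δβ BM replicate 3 the count in BM was 26 (9.97%).

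The medians also moved with single libraries. In SP the median was 0.11 without WT SP replicate 3 (23 of 38 above 0), 0.51 without WT SP replicate 1 and 0.50 without Δβ SP replicate 3. Without the WT SP libraries numbered 2 and 3, those with more Rn45s reads, WT SP replicate 1 was the only WT library left, the median was -0.01 and 18 of 38 members lay above 0. In BM the median was 0.62 without Δβ BM replicate 3 (35 of 38 above 0), 0.18 without Δβ BM replicate 1 (24 of 38) and 0.19 without Δβ BM replicate 2. Over both organs it was 0.18 without the Δβ libraries numbered 1 or without the WT libraries numbered 3, 0.23 without the Δβ libraries numbered 2 and 0.62 without those numbered 3.

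**Figure D1:**
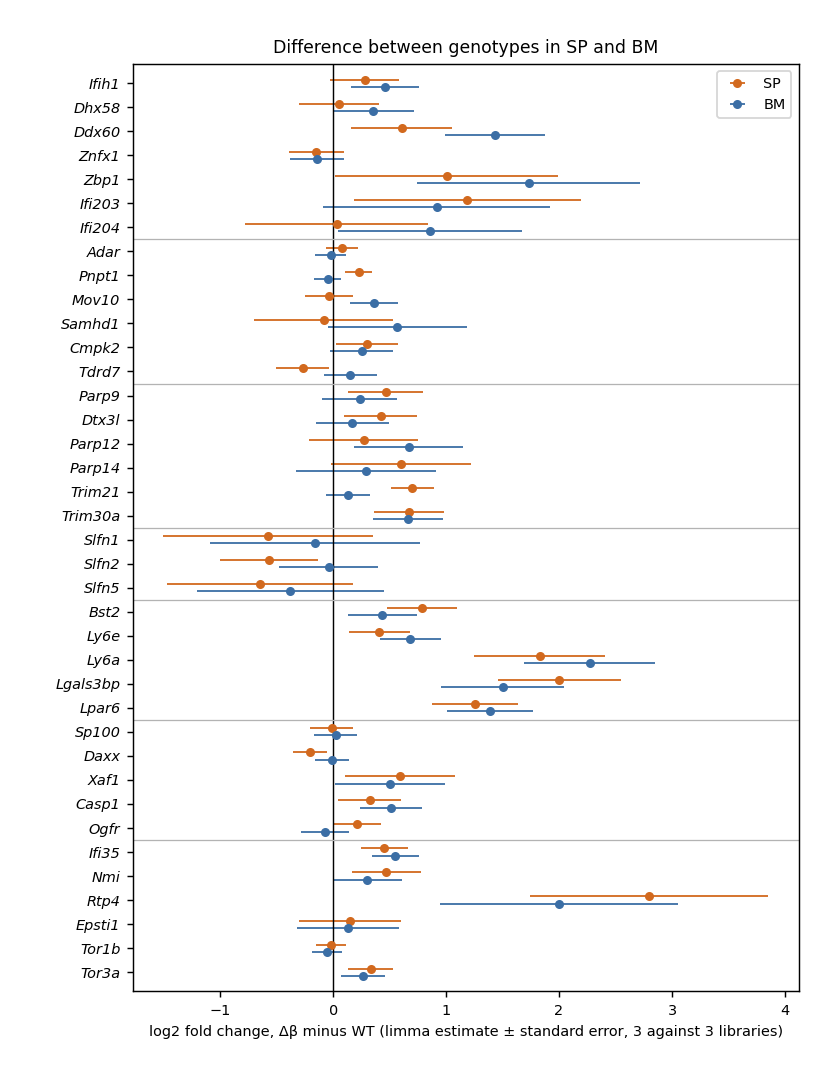
Log2 fold change of Δβ against WT for the 38 tested members in SP (orange) and BM (blue), with bars of 1 standard error from limma and grey lines between role groups. All 5 surface and secreted members lie to the right of 0 in both organs, all 3 Schlafen genes lie to the left (those in BM changed sign under some alternatives), and most of the others have bars that reach or come close to 0.

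Surface and secreted proteins stood highest of the role groups, with medians of 1.25 in SP and 1.39 in BM and all 5 members above 0 in both. The group holds Lpar6, a receptor for lysophosphatidic acid, Ly6a, which encodes the stem cell antigen Sca-1, Ly6e, a lipid-anchored surface protein that restricts several viruses, Bst2 or tetherin, which holds budding virions at the membrane, and Lgals3bp, a secreted glycoprotein that binds galectin-3.

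Lpar6 (RefSeq NM_175116, Entrez gene 67168, chr14:73237891-73240358 on the plus strand) had 448, 207 and 137 normalized counts in WT SP and 681, 519 and 492 in Δβ SP. In BM it had 271, 289.5 and 176 in WT and 763, 697 and 468 in Δβ. The lowest Δβ library was thus above the highest WT library in each organ, by a small margin in SP, where WT replicate 1 came close. The log2 fold change was 1.25 (SE 0.38, limma adjusted p = 0.225) in SP and 1.39 (SE 0.38, limma adjusted p = 1.0) in BM. Over both organs it was 1.32 (SE 0.30, limma adjusted p = 0.255, DESeq2 adjusted p = 0.00192). Against WT SP replicate 1 alone, without the Rn45s-rich WT SP libraries, the value in SP was 0.32. Lpar6 lies inside Rb1, which runs on the opposite strand and had 924 to 1562 normalized counts with overlapping genotypes. Whether reads were counted by strand is not given in the sources used here, so reads of the pair cannot be told apart.

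Ly6a (RefSeq NM_010738, Entrez gene 110454, chr15:74994877-74998031 on the minus strand) was a low gene throughout. Its libraries held 5.70, 9.54 and 15.2 normalized counts in WT SP and 45.7, 48.2 and 21.4 in Δβ SP. In BM the WT libraries had 2.98, 2.25 and 8.06 and the Δβ libraries 39.1, 23.4 and 12.4, so the genotypes did not overlap in either organ, and the third Δβ library was the lowest of its group in both. Ly6a differed by a log2 fold change of 1.83 (SE 0.58, limma adjusted p = 0.235) in SP, 2.27 (SE 0.58, limma adjusted p = 0.824) in BM and 2.05 (SE 0.51, limma adjusted p = 0.287, DESeq2 adjusted p = 0.0215) over both. WT BM replicates 1 and 2 held 3 and 2 reads, at or under the floor of 3 reads, so the size of the fold in BM rests on few reads. Ly6a and Ly6e are also expressed by T cells, and both Δβ libraries numbered 1 held T cell marker reads. Δβ SP replicates 1 and 2 had 45.7 and 48.2 normalized counts of Ly6a beside 124 and 2.24 of those markers. Δβ BM replicates 1 and 2 had 39.1 and 23.4 beside 299 and 8.18. The part of T cells in the values of Ly6a and Ly6e was not tested. Without both libraries numbered 1, the Ly6a log2 fold change was 1.66 in SP and 1.89 in BM. Without WT SP replicate 3, Ly6a passed in SP (limma adjusted p = 0.0464), in a fit that called 16.4% of all genes and 2 of 38 members (5.26%).

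The other 3 surface and secreted members are named by their values. Lgals3bp (chr11, minus strand) had 77.5, 67.8 and 62.9 normalized counts in WT SP and 337, 429 and 152 in Δβ SP, without overlap. In BM the values were 31.8, 76.6 and 28.2 in WT and 185, 171 and 51.8 in Δβ, where Δβ replicate 3 fell within the WT range. The log2 fold changes were 2.0 in SP (limma adjusted p = 0.218, DESeq2 adjusted p = 0.00491), 1.5 in BM and 1.75 over both (limma adjusted p = 0.294, DESeq2 adjusted p = 0.000292). Ly6e, far more abundant, had 6749 to 16856 normalized counts, and its Δβ BM libraries (12958, 11967 and 9216) lay above its WT BM libraries (7065, 7143 and 6872). Its log2 fold change was 0.68 (SE 0.27) in BM and 0.41 (SE 0.27) in SP, where the genotypes overlapped and where the value was -0.18 against WT SP replicate 1 alone. Bst2, whose start region holds the overlapping ISRE cores shown above, had 341, 281 and 274 normalized counts in WT SP and 461, 749 and 391 in Δβ SP, while in BM its genotypes overlapped between 193 and 464.

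**Figure D2:**
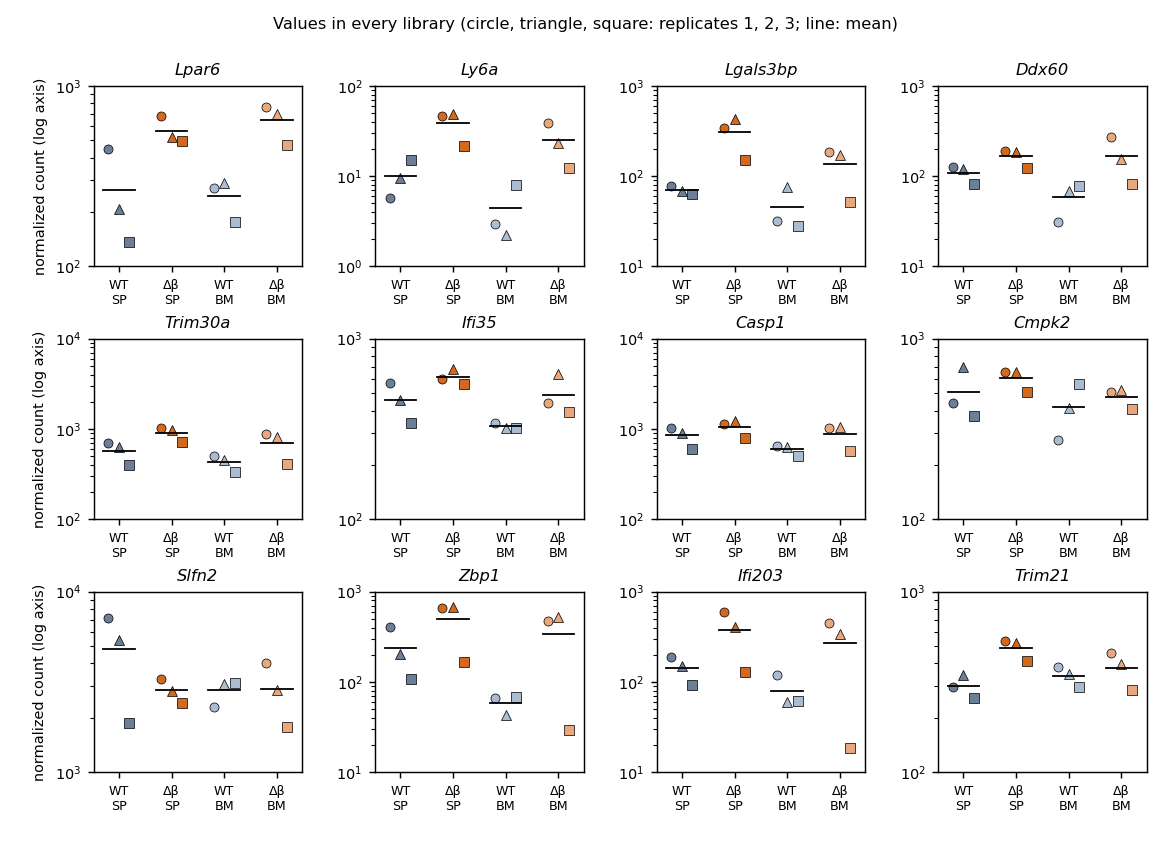
Normalized counts of 12 members in each of the 12 libraries on log axes, with circles, triangles and squares for replicates 1, 2 and 3 and a line at the group mean. Lpar6 and Ly6a show no overlap between genotypes in either organ, and in Zbp1 and Ifi203 the circle and triangle of Δβ lie above the WT values of their organ while the square does not.

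Nucleic acid sensors had medians of 0.28 in SP and 0.85 in BM, with 6 of 7 members above 0 in each organ. They comprise the RNA helicases Ifih1 (MDA5), Dhx58 (LGP2) and Ddx60, the double-stranded RNA binding protein Znfx1, Zbp1, which binds Z-form nucleic acid and can start necroptosis, and the DNA-binding HIN proteins Ifi203 and Ifi204. Znfx1 was the member below 0, at -0.15 in SP and -0.15 in BM.

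The helicase gene Ddx60 (RefSeq NM_001293783, Entrez gene 234311, chr8:61928073-62037704 on the plus strand) led the sensors by p over both organs. Its libraries held 125, 119 and 82.2 normalized counts in WT SP and 189, 187 and 123 in Δβ SP, where the lowest Δβ library overlapped the WT range. In BM the WT libraries had 30.8, 68.7 and 78.6 and the Δβ libraries 269.6, 153 and 81.8, so Δβ BM replicate 3 was just above the highest WT library. For Ddx60 the log2 fold change was 0.60 (SE 0.45) in SP, 1.43 (SE 0.45, limma adjusted p = 1.0) in BM and 1.02 (SE 0.31, limma adjusted p = 0.379, DESeq2 adjusted p = 0.0487) over both.

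Zbp1 and Ifi203, named after their values were seen, had wide differences and wide spread. Zbp1 had 408, 205 and 107 normalized counts in WT SP, 654, 673 and 164 in Δβ SP, 65.5, 42.8 and 68.5 in WT BM and 466, 528 and 29.0 in Δβ BM. Ifi203 had 189, 148 and 93.4 in WT SP, 593, 404 and 130.2 in Δβ SP, 119, 59.7 and 61.4 in WT BM and 454, 342 and 18.6 in Δβ BM. In both genes Δβ replicates 1 and 2 were above every WT library of their organ, Δβ SP replicate 3 lay within the WT SP range, and Δβ BM replicate 3 was the lowest of the 6 BM libraries. Their log2 fold changes were 1.0 (SE 0.99) and 1.19 (SE 1.01) in SP, and 1.73 (SE 0.99) and 0.92 (SE 1.01) in BM, with none past the limma threshold (adjusted p = 0.616, 0.556, 1.0 and 1.0). Ifi203 and Ifi204 are related genes of 1 cluster on chromosome 1, and their reads may have been split by the counting.

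All 6 ADP-ribosyltransferases and ubiquitin ligases lay above 0 in both organs, with medians of 0.53 in SP and 0.26 in BM. Parp9 and Dtx3l, which act as a pair in DNA repair and interferon signaling and whose genes overlap head to head on chromosome 16, had log2 fold changes of 0.46 and 0.42 in SP and 0.24 and 0.17 in BM. The mono-ADP-ribosyltransferases Parp12 and Parp14 were at 0.27 and 0.60 in SP and at 0.67 and 0.29 in BM. Without Δβ BM replicate 1, Parp9, Dtx3l, Parp14 and Trim21 lay at or below -0.01 in BM, and against WT SP replicate 1 alone Parp9, Parp12 and Parp14 lay below 0 in SP.

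Trim30a (RefSeq NM_009099, Entrez gene 20128, chr7:104409025-104465193 on the minus strand), a ubiquitin ligase of a rodent gene cluster that restrains Toll-like receptor signaling, led this group by p over both organs. Its WT SP libraries held 708, 628 and 397 normalized counts and its Δβ SP libraries 1018, 986 and 712, and 499, 448 and 335 in WT BM and 878, 824 and 413 in Δβ BM. The SP libraries did not overlap, by a narrow margin between the lowest Δβ and the highest WT library, and in BM Δβ replicate 3 fell within the WT range. Its log2 fold change was 0.67 (SE 0.31, limma adjusted p = 0.337) in SP, 0.66 (SE 0.31, limma adjusted p = 1.0) in BM and 0.67 (limma adjusted p = 0.48) over both. Near-identical Trim30 copies may share its reads.

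Trim21, a cytosolic antibody receptor and ubiquitin ligase, was singled out after its values were seen. WT SP libraries held 297, 344 and 259 normalized counts of it against 536, 519 and 412 in Δβ SP, without overlap. In BM it had 381, 349 and 295 in WT and 454, 396 and 285 in Δβ, with overlap. The log2 fold change was 0.70 (SE 0.19, limma adjusted p = 0.218, DESeq2 adjusted p = 0.0232) in SP and 0.13 (SE 0.19) in BM. The difference between the organs was 0.57 (SE 0.27, limma adjusted p = 0.926) and did not pass.

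Among the small adaptors and torsins, 5 of 6 tested members lay above 0 in each organ, with medians of 0.39 and 0.28. Ifi35 and its partner Nmi stabilize each other, Rtp4 is a chaperone for surface receptors, Epsti1 is known from the stroma of breast tumors, and Tor1b and Tor3a are ATPases of the endoplasmic reticulum. Tor1b differed little, at -0.02 in SP and -0.06 in BM.

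Ifi35 (RefSeq NM_027320, Entrez gene 70110, chr11:101448412-101458701 on the plus strand) led this group by p over both organs. In SP it had 568, 460.0 and 342 normalized counts in WT and 595, 682 and 562 in Δβ, with an overlap of WT replicate 1 and Δβ replicate 3. In BM the WT libraries stood close together at 343, 319.9 and 319, and the Δβ libraries, at 440.3, 638 and 392, were all higher. The log2 fold change was 0.45 (SE 0.21, limma adjusted p = 0.341) in SP, 0.55 (SE 0.21, limma adjusted p = 1.0) in BM and 0.50 (limma adjusted p = 0.418, DESeq2 adjusted p = 0.105) over both. Ifi35 and Dhx58 lie on chromosome 11 at 0.509 and 0.183 Mb from Stat3, the locus altered in the Δβ line, so genotype and flanking sequence of the donor strain cannot be told apart for them. Farther off on chromosome 11 lie Lgals3bp (17.5 Mb from Stat3), Slfn1, Slfn2 and Slfn5 (17.8, 17.8 and 17.9 Mb), Xaf1 (28.6 Mb) and Pnpt1 (71.7 Mb). Whether donor sequence reaches these genes was not tested.

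Rtp4, near the lower limit of the test, had 7.98, 5.30 and 1.01 normalized counts in WT SP and 19.4, 97.5 and 18.1 in Δβ SP, and 4.96, 4.51 and 1.01 in WT BM and 35.9, 36.2 and 2.07 in Δβ BM. WT SP replicate 3, WT BM replicate 3 and Δβ BM replicate 3 held 1, 1 and 2 reads, under the floor of 3 reads. The log2 fold changes of 2.80 (SE 1.05) in SP and 2.0 (SE 1.05) in BM therefore rest on few reads. The limma adjusted p was 0.282 in SP, 1.0 in BM and 0.444 over both, where DESeq2 gave 0.0192.

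The Schlafen genes were the role group with every member below 0 in both organs. Slfn1, Slfn2 and Slfn5, growth regulators of T cells and myeloid cells, had medians of -0.57 in SP and -0.16 in BM. In BM this direction was not stable, since Slfn1, Slfn2 and Slfn5 changed sign in 4, 5 and 2 of 18 alternatives, reaching 0.86, 0.27 and 0.57 without Δβ BM replicate 3. The Δβ BM means of Slfn1 and Slfn2 (505 and 2881 normalized counts) were above the WT BM means (402 and 2839). In SP, Slfn1 was at 0.09 without WT SP replicate 1. Slfn2 (RefSeq NM_011408, Entrez gene 20556, chr11:83065112-83070678 on the plus strand), which keeps lymphocytes and monocytes quiescent, had 7174, 5399.8 and 1872 normalized counts in WT SP and 3282, 2815 and 2421 in Δβ SP. In BM it had 2309.9, 3069.8 and 3136 in WT and 4002, 2857 and 1783 in Δβ. WT SP replicates 1 and 2 stood above all other libraries, WT SP replicate 3 was lower than every Δβ SP library, and the BM groups overlapped. For Slfn2 the log2 fold change was -0.57 (SE 0.43, limma adjusted p = 0.518) in SP and -0.04 (SE 0.43, limma adjusted p = 1.0) in BM. Without WT SP replicate 3 the SP value was -1.14 and passed the limma threshold (adjusted p = 0.0296), where the fit called 16.4% of all genes. Slfn1 ranged from 84.9 to 1732 normalized counts and Slfn5 from 58.0 to 1054, with WT SP replicate 1 the highest and Δβ BM replicate 3 the lowest for both.

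RNA and nucleotide enzymes differed little between the genotypes by their medians, 0.02 in SP and 0.20 in BM. In BM, Samhd1 and Mov10 were at 0.57 (SE 0.62) and 0.36 (SE 0.21), and in SP at -0.08 and -0.04. Over both organs the editing enzyme Adar (0.03, SE 0.11), Tdrd7 (-0.06) and the mitochondrial exoribonuclease Pnpt1 (0.09, SE 0.09) had small differences. Pnpt1 was at 0.23 in SP and -0.05 in BM. Samhd1, which breaks down the nucleotides needed for DNA synthesis, ranged from 1893 to 11639 normalized counts, lowest in Δβ BM replicate 3 and highest in WT SP replicate 1. Cmpk2 (RefSeq NM_020557, Entrez gene 22169, chr12:26469117-26479837 on the plus strand), a mitochondrial nucleotide kinase, had the lowest p of this group over both organs. Pnpt1 in SP and Mov10 in BM had a lower p than Cmpk2. Its values were 439.9, 701 and 373 normalized counts in WT SP, 650.3, 653 and 504 in Δβ SP, 275, 415 and 559 in WT BM and 507, 519 and 409 in Δβ BM, with overlap in both organs. This gave a log2 fold change of 0.30 (SE 0.28, limma adjusted p = 0.593) in SP and 0.25 (SE 0.28, limma adjusted p = 1.0) in BM.

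Nuclear body, death and inflammasome proteins had medians of 0.21 in SP and 0.02 in BM. The nuclear body proteins Sp100 and Daxx were at -0.01 and -0.20 in SP and at 0.02 and -0.01 in BM, and Ogfr, the opioid growth factor receptor, was at 0.21 in SP and -0.07 in BM. Xaf1, which binds the apoptosis inhibitor XIAP, was at 0.59 and 0.51 with an SE of 0.49. Casp1 (RefSeq NM_009807, Entrez gene 12362, chr9:5298517-5307281 on the plus strand), the protease that matures interleukin-1β, had the lowest p of the group over both organs. In SP, Daxx and Xaf1 had a lower p than Casp1. WT SP libraries held 1036, 913 and 598 normalized counts of it and Δβ SP libraries 1140.1, 1229.9 and 788, and 655, 634 and 509 in WT BM and 1015, 1055 and 572 in Δβ BM. Δβ replicates 1 and 2 were above all WT libraries of their organ, and Δβ replicate 3 was within the WT range in both. Casp1 had a log2 fold change of 0.32 (SE 0.28, limma adjusted p = 0.56) in SP and 0.51 (SE 0.28, limma adjusted p = 1.0) in BM.

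The members' levels also differed between libraries of 1 group. The median deviation of the 38 members from their own 12-library means was, in log2 and in the order of the replicate numbers, 0.33, 0.13 and -0.49 for WT SP and 0.53, 0.46 and -0.03 for Δβ SP. In BM it was -0.30, -0.43 and -0.48 in WT and 0.35, 0.32 and -0.54 in Δβ. Over all tested genes these medians stayed between -0.03 and 0.03. WT SP replicate 3 was the lowest of the 6 SP libraries for 32 of 38 members (21.0% of all genes), and Δβ BM replicate 3 was the lowest of the 6 BM libraries for 19 (21.0% of all genes). Within WT SP, Δβ SP and Δβ BM the libraries thus spanned more than the median difference between the genotypes.

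**Figure D3:**
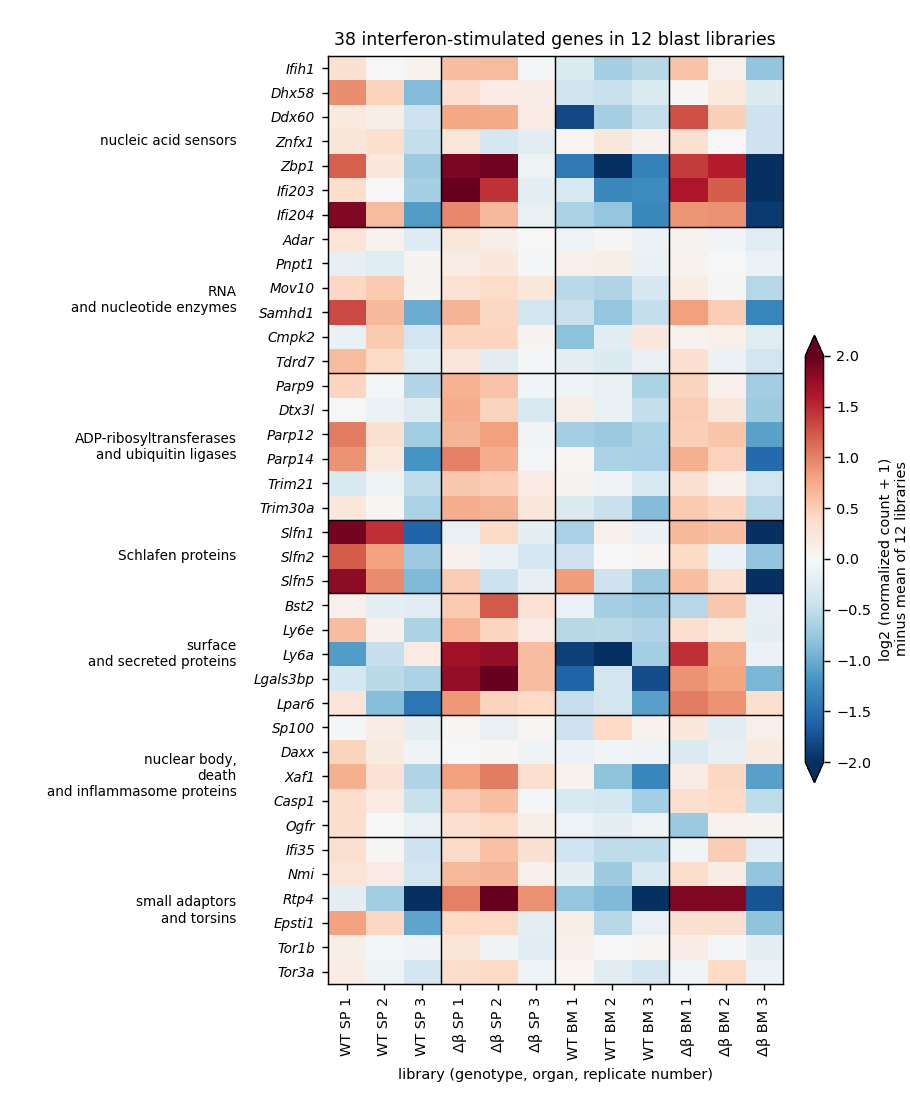
Heat map of the 38 tested members (rows, by role) in the 12 libraries (columns), colored by the log2 of the normalized count plus 1 minus the gene's mean over all 12 libraries and cut at -2 and 2. Columns WT SP 3, Δβ BM 3 and all those of WT BM are blue in most rows. Columns Δβ SP 1 and 2 and Δβ BM 1 and 2 are red in most, and the Schlafen rows are reddest in WT SP 1 and 2.

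The design also allows the organs to be compared within a genotype. In WT, 32 of 38 members lay higher in SP than in BM (50% of all genes), with a median log2 difference of 0.43 against 0.00 over all genes. In Δβ, 35 of 38 did (50.4% of all genes), with a median of 0.37 against 0.00. limma called 0 members in either genotype and 0% of all genes. At an unadjusted p under 0.05 Mov10 was higher in WT SP (4.36% of all genes) and Bst2, Lgals3bp and Ogfr in Δβ SP (0.654%). Since the Δβ libraries of equal number were taken as paired, a fit with the replicate number as a block was also made. In it limma again called 0 members in Δβ, and 11 had an unadjusted p under 0.05, all higher in SP (1.34% of all genes). edgeR called 0 members in both, and DESeq2 called Mov10 in WT (0.967% of all genes) and 0 in Δβ (0.0174%).

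All WT SP libraries lay above all WT BM libraries for 4 members (5.66% of all genes), Ddx60, Ifih1, Mov10 and Zbp1. In Δβ this held for Mov10 and Ogfr (2.92% of all genes). The RNA helicase Mov10, chosen here because it stood in both counts, had 165, 178 and 129 normalized counts in WT SP and 84.3, 81.1 and 97.7 in WT BM. In Δβ it had 152, 159 and 145 in SP and 137, 126 and 82.9 in BM, a smaller gap with the same order. Its log2 difference was 0.83 (SE 0.21, limma adjusted p = 0.531, DESeq2 adjusted p = 0.0413) in WT and 0.43 (SE 0.21, limma adjusted p = 1.0) in Δβ. Without WT SP replicate 3, Dhx58, Ly6e and Mov10 (7.89% of members) passed the limma threshold in WT, all higher in SP, as did 5.21% of all genes.

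Whether the difference between the genotypes itself depended on the organ was tested as an interaction. limma called 0 members (0% of all genes), and 0 members had an unadjusted p under 0.05 (3.20% of all genes). The differences of the differences ranged from -0.83 for Ddx60 (SE 0.63) to 0.80 for Rtp4 (SE 1.49). This fit had 1 mean per group and did not use the pairing of equally numbered Δβ libraries. No interaction was fitted with the number as a block within each genotype. A dependence on the organ within these errors was thus not detectable in this fit, with 3 libraries per group.

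**Figure D4:**
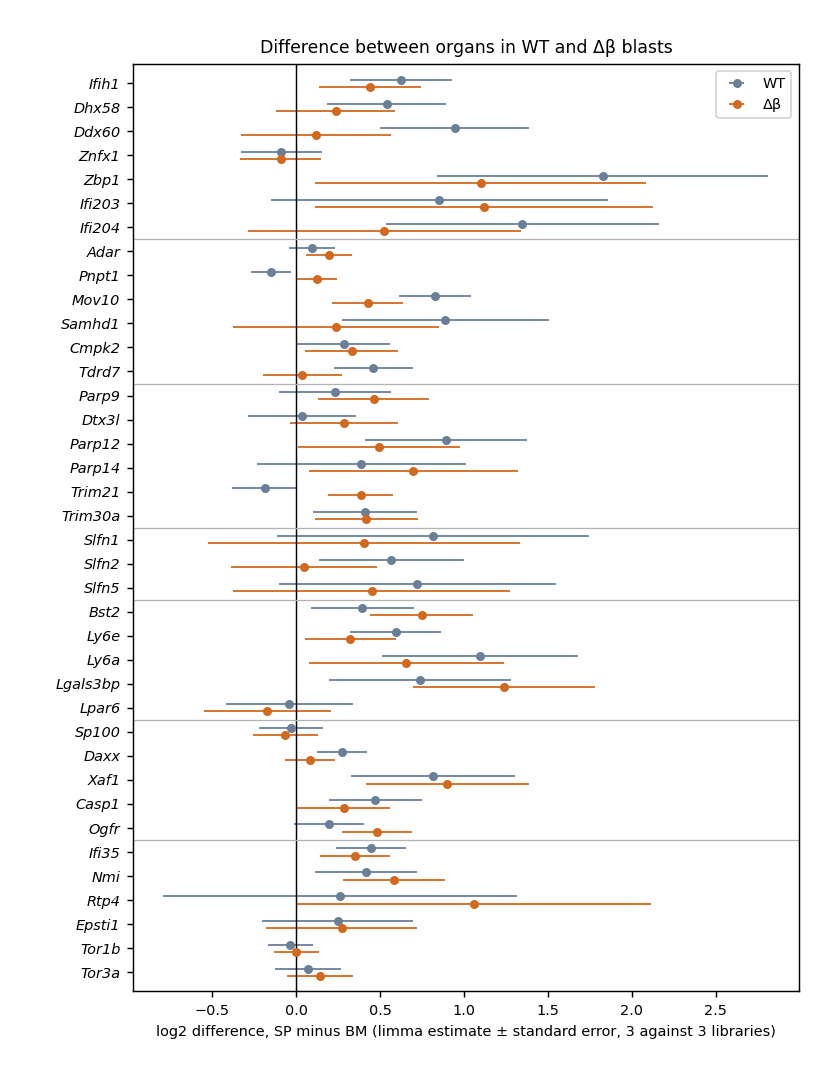
Log2 difference between SP and BM for the 38 tested members in WT (grey) and Δβ (orange), with bars of 1 standard error from limma and grey lines between role groups. Points lie to the right of 0 for 32 members in WT and 35 in Δβ, and Mov10 in WT is the member whose bar is farthest from 0 in proportion to its length.

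Levels can be compared between genes only per length of their exons. Per kilobase of exon, Ly6e (2974 normalized counts per kb in WT SP, 3761 in Δβ SP) and Slfn2 (2894 and 1706) were the most abundant members. Samhd1, Casp1, Ogfr and Sp100 followed by their 12-library means, lying between 348 and 778 per kb in the 4 groups. Rtp4 and Ly6a were the lowest in WT, at 2.24 and 8.43 per kb in WT SP. The members with the largest log2 fold changes, Rtp4, Ly6a and Lgals3bp, were among the scarcer ones. The abundant Ly6e, Slfn2, Samhd1, Casp1, Ogfr and Sp100 had log2 fold changes of 0.55, -0.30, 0.24, 0.42, 0.07 and 0.00 over both organs.

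The other genes of the pathway were taken from lists by function. Of 9 interferon genes listed, 7 had no read in any library and 0 reached the limit for testing. Ifnb1 had 1 read in 1 library, and Ifng had at most 10.9 normalized counts, in Δβ BM replicate 1, the library with the most T cell marker reads. Of 7 receptors and kinases, limma called 0 in SP, BM or both. Ifngr1 and Jak1 were lower in Δβ SP at an unadjusted p under 0.05 (8.96% of all genes). Ifnar1 ranged from 944 to 1924 normalized counts and Ifngr1 from 3900.4 to 9116. DESeq2 called 0 of these 7 genes. Of 8 transcription factors limma called 0. At an unadjusted p under 0.05, Irf1 was higher in Δβ SP (5.93% of all genes) and over both organs (3.41%). DESeq2 called Irf1 over both organs (adjusted p = 0.0411, with 3.68% of all genes called). Over both organs the log2 fold changes were 0.95 for Irf1, 0.57 for Irf9, 0.50 for Irf7 and 0.25 for Stat2. Of 7 inhibitors, among them Socs1, Socs3 and Usp18, limma called 0. DESeq2 called Socs3 in SP (3.98% of all genes) and over both organs (3.68%). Socs3 and Ptpn1 were lower in Δβ SP at an unadjusted p under 0.05 (8.96% of all genes). Socs3 had 1442, 321 and 175 normalized counts in WT SP and 83.7, 66.1 and 52.3 in Δβ SP (DESeq2 adjusted p = 0.00225), with WT SP replicate 1 far above the other libraries of SP.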

How the data were processed

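The authors sequenced poly-A enriched RNA of sorted Venus+ blasts in 12 libraries. Genotype and organ, both taken from the labels, gave 4 groups of 3 libraries. Per the labels' processing notes, reads were handled with FastQC, STAR, featureCounts and DESeq2 on GRCm38 (mm10), and versions and settings are not given in the sources used here. The values the authors deposited are a signal, namely gene counts scaled by the size factor of the library. Divided by the library's smallest nonzero value, 100% of them were whole to within 0.001, which gave back the reads. The same table holds 6 further columns that match no sample used here, and they were left out.

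Normalized values plus 1 were log2-transformed and tested with limma 3.58.1 (R 4.3.3, lmFit, eBayes with trend) over the 11476 genes whose mean reached 10, with 1 mean per group, a shared spread and Benjamini-Hochberg adjustment at 0.05. For both organs, the log2 values of equally numbered SP and BM libraries of a genotype were averaged. edgeR 4.0.16 (quasi-likelihood test) and DESeq2 1.42.0 were run on the recovered reads, and on reads summed over SP and BM for both organs. The scripts were tested on simulated data. An exact permutation test of 3 against 3 libraries cannot reach a p under 0.05. A floor of 3 reads was set, which covers counting error alone.

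The members, role groups and lists were chosen with earlier results of these data known. Values in every library are given for members past the threshold, members whose genotypes did not overlap in both organs, the member with the lowest p over both organs in each role group, and Ly6a. Other members named with values were picked after their values were seen. The results of 1 other gene of the pathway are not reported here. Exon lengths are unions of GENCODE M21 exons, and coordinates and start regions are those of RefSeq on GRCm38.p6.

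Equal numbers in the labels were checked for pairing by correlating, across genes, deviations from the group means. For equally numbered SP and BM libraries of Δβ, r was 0.608 to 0.664, against -0.485 to -0.177 for other numbers. They were taken as paired, which the labels do not state. The deviations of a gene sum to 0 within a group, so the negative r of other numbers follows from the positive r and adds no separate support. In WT, r was -0.237 to -0.00936 for equal numbers, against -0.213 to 0.297 for other numbers. The WT averages over both organs thus join libraries by label number alone, and the SE and p-values over both organs rest on that choice. Between genotypes of 1 organ r was -0.166 to 0.202 in SP and -0.0893 to 0.128 in BM. Alternatives were other pseudocounts (0.25 and 4), filters (none and 50), scalings and tests, the organs fitted alone, the number as a block, and each library left out.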

Additional observations from a re-analysis of the deposited data

How the results depend on the processing

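In the main fit the members' medians (0.31 in SP, 0.33 in BM and 0.36 over both organs) were smaller than 0.366. That value is the pooled SD between replicates of the members' median deviation, not the error of a difference between groups. The medians kept their sign with 1 library (for both organs, 1 number) or both Δβ libraries numbered 1 left out. They were then 0.11 to 0.51 in SP, 0.18 to 0.62 in BM and 0.18 to 0.62 over both organs. In SP the median was -0.01 without the WT SP libraries numbered 2 and 3. With the other alternatives the medians were 0.29 to 0.37, 0.30 to 0.39 and 0.32 to 0.41. 0 members were called in BM, between the organs in Δβ and in the interaction under every alternative run, edgeR and DESeq2 included. In SP, 2 members were called by DESeq2 (Lgals3bp and Trim21), 0 to 2 with 1 library left out, the 2 being Ly6a and Slfn2 without WT SP replicate 3 (5.26% of members, 16.4% of all genes), and 1 (Slfn2, 2.63% of members, 13.0% of all genes) without the WT SP libraries numbered 2 and 3, a choice made after seeing the data. Over both organs DESeq2 called 5 members, limma with the replicate block called 1 (Lpar6, adjusted p = 0.0379, 0.479% of all genes), and limma called 0 with the other alternatives. These numbers pair no WT with a Δβ library, and the block changed no other call, though in WT 13 members then had an unadjusted p under 0.05 between the organs (4.78% of all genes). Between the organs in WT, 1 member was called by DESeq2, 0 to 3 with 1 library left out (the 3 beside 5.21% of all genes), and 2 (Dhx58 and Ly6e, beside 9.99% of all genes) without the WT SP libraries numbered 2 and 3. With 1 library left out, the members without overlap between genotypes were 7 to 19 in SP (10.4% to 24.9% of all genes). In BM they were 5 to 26 (6.35% to 10.2% of all genes). These ranges do not run together. In SP the 24.9% stood beside 8 members (21.1%), without WT SP replicate 3, and the 19 beside 11.7%, without Δβ SP replicate 3. Without WT SP replicate 1, 13 members were without overlap. The log2 fold change kept its sign in all settings for 23 of 38 members in SP, 21 in BM and 27 over both organs. Rtp4, Ly6a and Ifi44 are limited by depth, with libraries at or under 3 reads.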
